A study of Mus musculus with 7 samples.

Results

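The Hox genes of mouse dorsal skin were taken as all rows, control spots left out, whose gene name on the array begins with Hoxa, Hoxb, Hoxc or Hoxd and a number; 1 gene of the C cluster was not analysed here. This gave 57 rows of 43379 on each of the 7 arrays, which held 48 probes of 41174 for 37 genes. Each array has a red and a green channel, 14 in all. A probe entered the tests if the scanner software had called it well above background in 3 or more of them, and each gene was then read from its brightest probe. Of the 37 genes, 27 passed this filter, among 17110 genes of all kinds. Hox genes of all 4 clusters were detected up to the tenth position, and none of those measured beyond it was. After treatment of control-fed skin with detergent, Hoxa10, Hoxa7, Hoxa9, Hoxd4, Hoxc10 and Hoxa5 were lower than before it. No Hox gene was higher by the same test. The call of Hoxa5 was lost in most alternative analyses, and Hoxc10 met the filter only through samples from before detergent.

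The samples were back skin from 5-week-old males of the hairless mouse strain HR-1, fed an AIN-93G diet with glucosylceramide (GC) or that diet without it (control-fed). Each two-colour array held 1 GC-fed and 1 control-fed sample, 1 in Cy3 and 1 in Cy5. On 4 arrays the skin had been treated with 10% sodium dodecyl sulfate (SDS), a detergent that damages the outer barrier, for 2 days, after 14 days of the diets in all. The other 3 arrays held skin from before SDS, after 12 days. GC is a sphingolipid made of ceramide and a sugar. The labels call the samples biological replicates and do not say whether each was 1 animal or a pool, so the p-values measure the spread between samples. The after-SDS arrays lay on 1 slide and the before-SDS arrays on another, so SDS, slide and days of diet cannot be told apart. The diet comparison was made within each array.

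After-SDS array 4 stood apart from the others. Over all 17110 genes its log2 ratio, GC-fed over control-fed, correlated with those of after-SDS arrays 1, 2 and 3 at -0.499, -0.62 and -0.301, while these 3 correlated with each other at 0.315 to 0.498. Before-SDS arrays 1 and 2 correlated at -0.407. The dyes were taken as the labels give them, and results are given below also without array 4 or with its 2 samples exchanged. The share of spots called above background was 58.2% to 62.8% in red and 48.5% to 54.5% in green, so a dim gene was called more readily in red. The green share was 48.5% to 51.4% on the after-SDS arrays and 52.6% to 54.5% on the before-SDS arrays. In red these ranges overlapped. All 8 basal keratinocyte markers and all 10 dermal fibroblast markers listed for the comparison passed the filter, as did 13 of 16 hair follicle markers; the other 3 had no probe under those names.

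Hox genes encode homeodomain transcription factors that give cells their place along the body axis. In mammals they lie in 4 clusters, A to D, and the number of a gene tells its place within its cluster: low numbers act toward the head and high numbers toward the tail and the ends of the limbs. Genes that share a number in different clusters are paralogs. In adult skin, fibroblasts keep a Hox pattern that differs between body sites, and Hox proteins bind DNA together with partners of the Pbx and Meis families.

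Hox genes were detected most fully at positions 4 to 10 of the clusters. Levels of different probes cannot be set against each other on an array, so the pattern was read from the detection calls. In all 14 channels, 13 of the 37 genes were well above background: Hoxa5, Hoxa7 and Hoxa9 of cluster A, Hoxb2, Hoxb4, Hoxb6, Hoxb7 and Hoxb9 of cluster B, Hoxc6 and Hoxc9 of cluster C, and Hoxd4, Hoxd8 and Hoxd9 of cluster D. A further 14 were above background in 3 to 13 channels, and 10 in none. By position, 5 of 8 genes at positions 1 to 3, 15 of 15 at positions 4 to 8 and 7 of 7 at positions 9 to 10 were called in at least 3 channels. None of the 7 genes measured at positions 11 to 13 was called in any channel: Hoxa11, Hoxa13, Hoxb13, Hoxc12, Hoxd11, Hoxd12 and Hoxd13, of which Hoxa13 and Hoxd13 act in the digits and the genital tubercle of the embryo. At the head end Hoxb1, Hoxd1 and Hoxd3 were also called in 0 channels. By the scanner's looser test of signal against background, the 7 genes at positions 11 to 13 were each called in 1 to 5 channels. That test called Hoxd1 in 4 channels, Hoxd3 in 9 and Hoxb1 in 0.

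**Figure D1:**
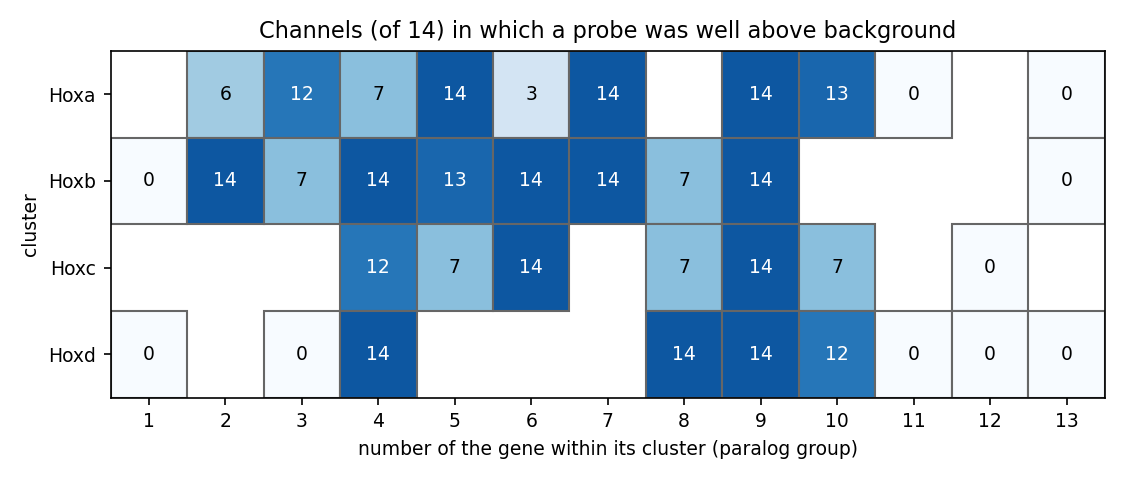
Each box gives the number of channels, of 14, in which a gene was well above background, by cluster (rows) and by the number of the gene within its cluster (columns); a place without a box has no gene drawn, and 36 of the 37 genes are drawn. Boxes at positions 4 to 10 hold 3 to 14 channels, and all boxes at positions 11 to 13 hold 0.

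The calls of the dimmer genes followed the dye. Hoxa4, Hoxb3, Hoxc5 and Hoxc8, a gene that patterns the thoracic vertebrae, were each called in 7 of 7 red channels and in 0 of 7 green ones. Hoxa10 was called in 13 channels, Hoxb5 in 13, Hoxa3, Hoxc4 and Hoxd10 in 12, Hoxb8 in 7, Hoxa2 in 6 and Hoxa6 in 3. Hoxc10, which acts in hindlimb motor neurons and the lumbar region, was called in 7 channels, and these were unevenly spread: 1 of 4 GC-fed and 0 of 4 control-fed samples after SDS, against 3 of 3 in either diet before it. A probe not called has only an upper bound on its level there. Of the genes that passed the filter with a further probe, Hoxb6 had both probes called in all 14 channels, and Hoxa3, Hoxa4, Hoxb2, Hoxb8, Hoxb9, Hoxc10 and Hoxd9 had the further probe called in fewer channels than the one used.

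The stretch of DNA just before the RefSeq start of a gene is shown for Hoxa7, Hoxa9, Hoxa10 and Hoxd4, whose levels are described next. An upstream sequence was at hand for 22 of the 37 genes, Hoxc10 not among them. Each line is the 250 bases before the start on build GRCm38.p6, read 5′ to 3′ on the strand of the gene, with matches to 5 motifs in capitals. Hoxa10 has a pair of starts, and both are given. The motifs were TGATNNAT (the joint Hox and Pbx site), TAATTA (a homeodomain core), TATAAA (the TATA box), CCAAT (the CCAAT box) and GGGCGG (the site of Sp factors). Both strands were searched, and motifs were allowed to overlap.
Hoxa7, chr6:52218574-52218823: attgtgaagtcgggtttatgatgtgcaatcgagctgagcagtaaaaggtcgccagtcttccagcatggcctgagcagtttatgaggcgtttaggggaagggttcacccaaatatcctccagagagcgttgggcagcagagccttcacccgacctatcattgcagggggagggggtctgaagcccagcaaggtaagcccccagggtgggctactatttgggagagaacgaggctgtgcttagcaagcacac
Hoxa9, chr6:52227371-52227620: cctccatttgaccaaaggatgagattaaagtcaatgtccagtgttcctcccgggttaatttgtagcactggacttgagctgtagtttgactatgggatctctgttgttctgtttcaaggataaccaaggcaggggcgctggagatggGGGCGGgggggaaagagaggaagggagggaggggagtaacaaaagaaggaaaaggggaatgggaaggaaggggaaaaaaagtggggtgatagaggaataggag
Hoxa10 (inner start), chr6:52234940-52235189: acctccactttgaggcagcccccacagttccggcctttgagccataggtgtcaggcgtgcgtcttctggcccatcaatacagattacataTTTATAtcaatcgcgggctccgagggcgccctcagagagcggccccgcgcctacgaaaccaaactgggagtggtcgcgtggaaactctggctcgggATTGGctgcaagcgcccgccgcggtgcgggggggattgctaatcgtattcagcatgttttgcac
Hoxa10 (outer start), chr6:52240855-52241104: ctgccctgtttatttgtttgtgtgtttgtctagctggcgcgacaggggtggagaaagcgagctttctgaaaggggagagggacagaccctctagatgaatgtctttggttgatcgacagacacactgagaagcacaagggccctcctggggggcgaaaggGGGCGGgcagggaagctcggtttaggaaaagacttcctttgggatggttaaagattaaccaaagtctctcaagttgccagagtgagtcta
Hoxd4, chr2:74721728-74721977: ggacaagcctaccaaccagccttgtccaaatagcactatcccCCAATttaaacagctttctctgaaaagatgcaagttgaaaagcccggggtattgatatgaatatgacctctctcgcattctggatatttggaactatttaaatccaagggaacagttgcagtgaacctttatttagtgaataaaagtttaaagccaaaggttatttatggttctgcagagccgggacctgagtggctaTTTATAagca

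Hoxa7, Hoxa9 and Hoxa10 lie on the minus strand of chromosome 6 and Hoxd4 on the plus strand of chromosome 2. None of the 5 motifs occurs in the window of Hoxa7. The window of Hoxa9 and that of the outer start of Hoxa10 hold GGGCGG, on the strand of the gene. The window of the inner start of Hoxa10 holds TATAAA and CCAAT as their reverse complements, the first beginning 160 bases before the start. In the window of Hoxd4, TATAAA lies on the other strand 10 bases before the start, and CCAAT begins 208 bases before it. Neither TGATNNAT nor TAATTA occurs in these windows. Over the 24 Hox windows, CCAAT occurred in 58.3% against 33.8% of all 32851 windows, and GGGCGG in 41.7% against 32.7%. TATAAA occurred in 16.7% against 12.4%, TGATNNAT in 16.7% against 7.68%, and TAATTA in 8.33% against 4.84%. These are matches of letters, and binding was not measured.

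The first question of the SDS comparison is how Hox levels differed after treatment in control-fed skin. Of the 27 genes, 6 fell by limma's separate-channel test at an adjusted p under 0.05, and 0 rose. These are 22.2% lower, against 8.46% of all 17063 genes tested, and 0% higher, against 6.66%; at an unadjusted p under 0.05, 8 of the 27 Hox genes differed (29.6%, against 32.6% of all genes). Of the 6, 4 belong to cluster A, which counts 9 tested genes, 1 to cluster C and 1 to cluster D. The 1 of cluster C, Hoxc10, met the filter only through samples from before SDS. Among genes called in all 14 channels, 4 of 13 Hox genes fell, against 1307 of 13523 genes of all kinds. The median change of the 27 Hox genes was -0.11 on the log2 scale, against 0.00 over all genes. In bulk skin, fewer cells that express a gene and less of its RNA per cell cannot be told apart.

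Hoxa10, which patterns the lumbar vertebrae and the uterus, had the lowest p. Its normalized log2 intensity was 7.87, 7.35, 7.79 and 7.64 in control-fed skin after SDS, against 8.82, 8.90 and 8.89 before SDS. All after-SDS values lay below all before-SDS values. The fitted change was -1.21 (SE 0.18, adjusted p = 0.00275), or 0.433 times the level before SDS. Read within the Cy3 and the Cy5 channels alone, the difference was -1.18 and -1.21.

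Its neighbours in the cluster followed. Hoxa9, a gene of blood progenitors and of the thoracic and lumbar axis, stood at 8.50, 7.92, 8.25 and 8.24 after SDS, against 9.01, 9.04 and 9.08 before it, a change of -0.82 (SE 0.18, adjusted p = 0.011). Hoxa7, a gene of the thoracic axis, stood at 10.66, 10.72, 10.69 and 11.10 after SDS, against 11.98, 11.89 and 11.75 before it, a change of -1.04 (SE 0.23, adjusted p = 0.0122). Neither gene's groups overlapped, and for Hoxa7 the sample of array 4 was the highest of the after-SDS group. Hoxa5, which is needed for lung and cervical to thoracic patterning, showed a smaller change: 8.29, 8.36, 8.01 and 8.22 after SDS, against 8.60, 8.54 and 8.45 before it (-0.33, SE 0.10, adjusted p = 0.0446). This call lay near the threshold: the adjusted p ran from 0.0125 to 0.998 over 17 alternatives and passed in 4 of them. Hoxa6, which lies between Hoxa5 and Hoxa7, was called in 1 of 4 samples after SDS and 1 of 3 before it, and its fitted change was -0.10.

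Outside cluster A, Hoxd4 and Hoxc10 fell. Hoxd4, a gene of the hindbrain border and cervical vertebrae, stood at 9.09, 9.002, 9.01 and 9.17 in control-fed skin after SDS, against 9.58, 9.65 and 9.66 before it (-0.56, SE 0.10, adjusted p = 0.00516). These groups lay further apart than the spread within either. Hoxc10 was not well above background in any of the 4 samples after SDS, where its signal averaged 7.27, and was so in 3 of 3 before SDS, where it averaged 7.82. With the dimmest detected signal of each array as a bound, Hoxc10 was at least 1.27-fold lower after SDS (adjusted p = 0.0048 in the fit). Hoxc10 entered the tests only through its before-SDS samples, and entry by that route favours a fall. Its further probe was called in 0 of 14 channels.

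Groups did not overlap, with after-SDS samples lower, for 8 of the 27 Hox genes in control-fed skin (29.6%, against 16.4% of all genes), and with after-SDS samples higher for 1, Hoxc8 (3.7%, against 14.5%). Without before-SDS array 1, 1 Hox gene passed, Hoxa10, among 151 genes of all kinds, against 2580 with all arrays; without any normalization between arrays, 0 Hox genes and 0 genes of all kinds passed. In each of the 16 or 17 alternatives tried, the fitted change of all 6 genes stayed below 0. The call was lost in 1 alternative for Hoxa10 and in 2 for each of Hoxa7, Hoxa9, Hoxd4 and Hoxc10, but in 13 of 17 for Hoxa5.

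**Figure D2:**
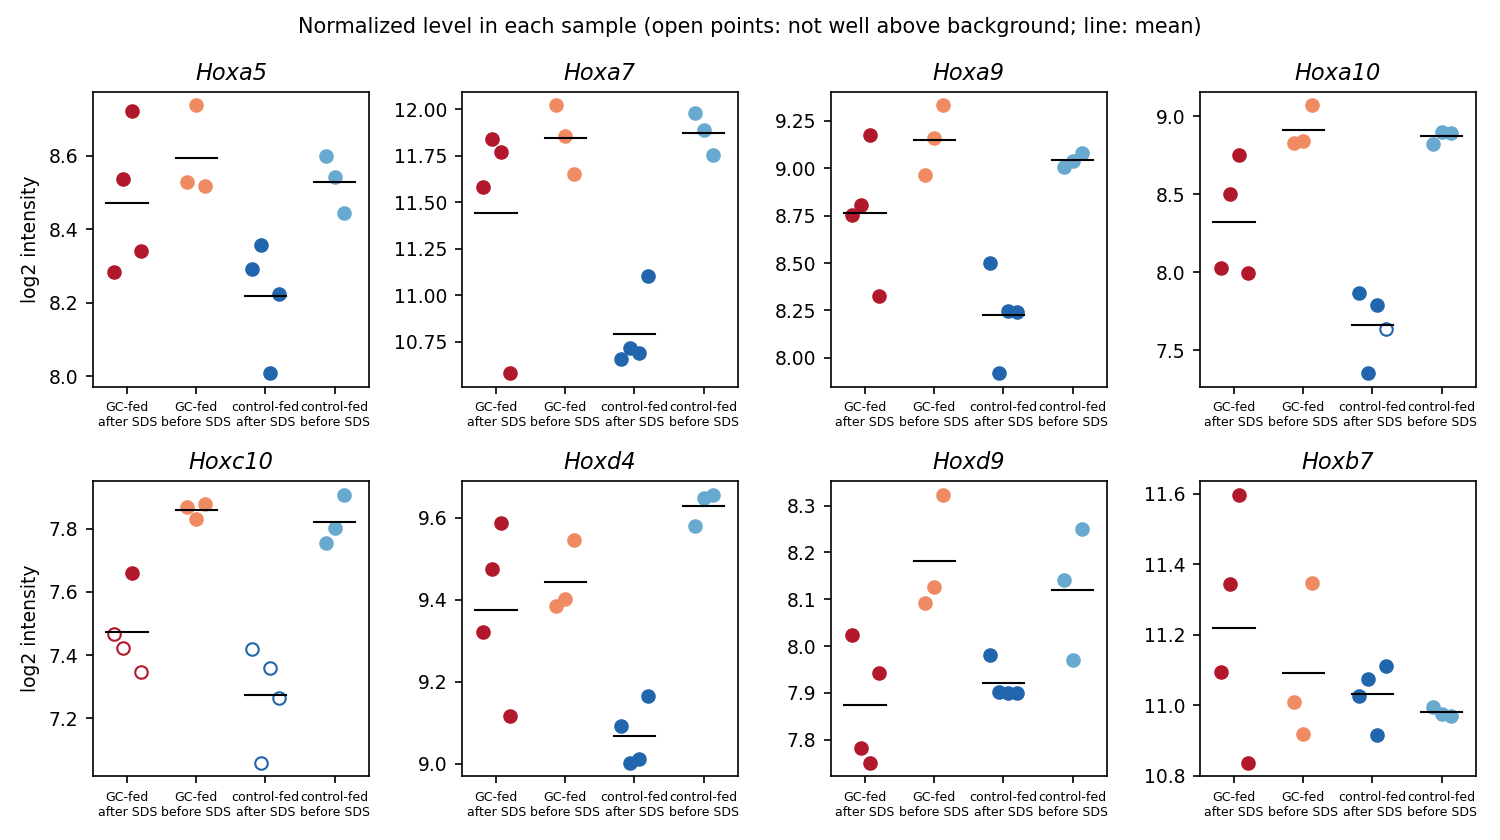
Normalized log2 intensity of 8 Hox genes in each sample, with groups from left to right GC-fed after SDS, GC-fed before SDS, control-fed after SDS and control-fed before SDS. Points are samples (filled where the probe was well above background) and lines are group means; Hoxa7, Hoxa9, Hoxa10 and Hoxd4 of control-fed skin after SDS lie below all control-fed samples before SDS, while the groups of Hoxb7 overlap.

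In GC-fed skin, 3 of the 27 Hox genes fell after SDS: Hoxc10, Hoxa10 and Hoxd9. These are 11.1%, against 7.54% of all genes lower, which is close to the background. No Hox gene rose (0%, against 6.12%), and at an unadjusted p under 0.05, 5 of the 27 differed in limma's test (18.5%, against 30.2%). Hoxa10 stood at 8.03, 8.50, 8.75 and 7.99 in GC-fed skin after SDS, against 8.83, 8.84 and 9.07 before it (-0.59, SE 0.18, adjusted p = 0.0449). The groups did not overlap, although after-SDS array 3 lay just below the lowest sample before SDS. Hoxc10 was well above background in 1 of 4 samples after SDS, with values of 7.47, 7.42, 7.66 and 7.35, against 7.87, 7.83 and 7.88 before it (-0.39, SE 0.10, adjusted p = 0.021). Here too its entry through the filter rested on the before-SDS samples.

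Hoxd9, a posterior gene of trunk and limb, stood at 8.02, 7.78, 7.75 and 7.94 in GC-fed skin after SDS, against 8.09, 8.13 and 8.32 before it (-0.30, SE 0.09, adjusted p = 0.0467). A further probe of Hoxd9 gave -0.20 with an adjusted p of 0.108, so the call rested on 1 probe. Hoxa7 and Hoxa9 did not pass in GC-fed skin. Hoxa7 was 11.58, 11.84, 11.77 and 10.58 after SDS, against 12.02, 11.86 and 11.65 before it (-0.44, SE 0.23, adjusted p = 0.219), and array 4 alone lay far below. Hoxa9 was 8.75, 8.81, 9.18 and 8.33 after SDS, against 8.96, 9.16 and 9.33 before it (-0.38, SE 0.18, adjusted p = 0.168). Hoxd4 was 9.32, 9.47, 9.59 and 9.12 after SDS, against 9.38, 9.40 and 9.55 before it (-0.07, SE 0.10, adjusted p = 0.664). Over the alternatives, the GC-fed call of Hoxa10 was lost in 11 of 16, that of Hoxc10 in 7 of 16 and that of Hoxd9 in 12 of 17. All 3 GC-fed calls were lost without any 1 of the before-SDS arrays or without after-SDS array 4, where 0 of the 27 Hox genes passed. Whether the change with SDS differs between the diets is the test of the diet effect after minus before SDS, given further on, and 0 genes passed it.

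**Figure D3:**
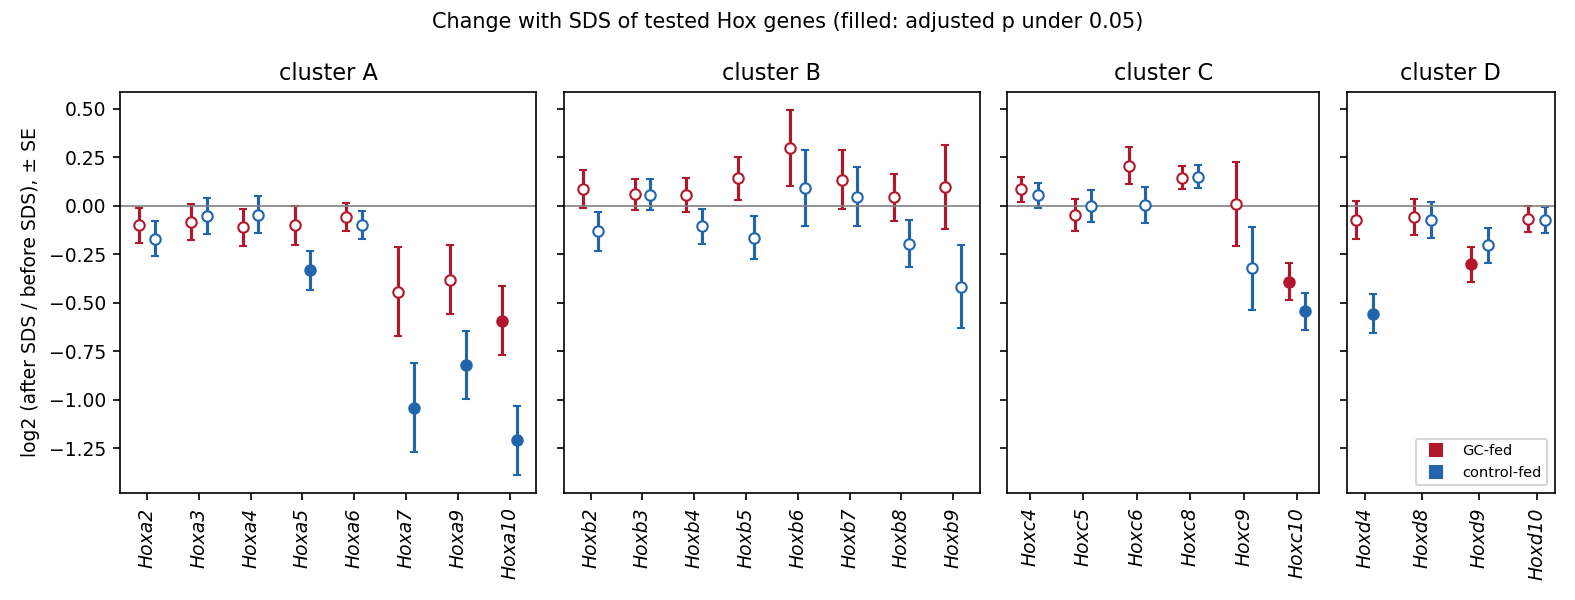
Fitted log2 change of 26 of the 27 tested Hox genes after SDS over before SDS, with its standard error, in GC-fed skin (red) and control-fed skin (blue), in cluster order; filled points had an adjusted p under 0.05. The lowest points are Hoxa10, Hoxa7 and Hoxa9 in control-fed skin, and no gene of cluster B is filled.

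The changes were also counted by position along the clusters, beside 7.54% of all genes lower in GC-fed and 8.46% in control-fed skin. Of the 7 tested genes at positions 9 to 10, 3 fell in GC-fed and 3 in control-fed skin, with medians of -0.30 and -0.42. Hoxc10, which met the filter only through samples from before SDS, is among them in both diets. At positions 4 to 8, 0 of 15 fell in GC-fed and 3 of 15 in control-fed skin, with medians of 0.05 and -0.07. At positions 1 to 3, 0 of 5 passed in either diet, with medians of -0.08 and -0.05. A difference between positions was not tested. Paralogs of the genes that fell in control-fed skin were read beside them. Beside Hoxa9, Hoxb9 had -0.42 (95% interval down to -0.88, adjusted p = 0.2), Hoxc9 -0.32 (adjusted p = 0.319) and Hoxd9 -0.20 (adjusted p = 0.142). Beside Hoxa10, Hoxc10 passed as given above (-0.54) and Hoxd10 had -0.07, and beside Hoxd4, Hoxa4 had -0.05, Hoxb4 -0.11 and Hoxc4 0.05. Beside Hoxa7, Hoxb7 had 0.05.

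None of the 8 tested genes of cluster B passed in either diet. In GC-fed skin their fitted changes ran between 0.05 and 0.30, all above 0, with a median of 0.09; without normalization between arrays, where the median of all genes was -0.26, several of them were below 0. Hoxb7 and Hoxb9 were also below 0 without after-SDS array 3, and Hoxb9 without before-SDS array 2, and a further probe of Hoxb9 gave -0.05. In control-fed skin they ran between -0.42 and 0.09, 3 above 0 and 5 below, with a median of -0.12. Hoxb6, a gene of the thoracic axis, had the smallest p of those above 0 in GC-fed skin. It stood at 10.24, 10.48, 10.65 and 10.00 after SDS, against 9.99, 9.59 and 10.52 before it. The fitted change was 0.30 (SE 0.20, adjusted p = 0.337 by limma), and its groups overlapped. In control-fed skin the probe used for Hoxb6 gave 0.09. Its further probe, also called in all 14 channels, gave 0.10 in GC-fed skin and -0.21 in control-fed skin. Hoxb7 stood at 11.09, 11.34, 11.60 and 10.84 in GC-fed skin after SDS, against 11.01, 10.92 and 11.35 before it, and at 11.03, 11.07, 10.92 and 11.11 in control-fed skin after SDS, against 10.995, 10.97 and 10.97 before it. Over the 8 genes, the 95% intervals spanned -0.37 to 0.72 in GC-fed skin and -0.88 to 0.52 in control-fed skin, so a change of the size of that of Hoxa5 could be missed.

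In cluster C, Hoxc8 and Hoxc6, a gene of the upper thoracic axis, had the smallest p of the genes above 0 in GC-fed skin. Hoxc8 had 0.15 in GC-fed skin (SE 0.06, adjusted p = 0.111) and 0.15 in control-fed skin (adjusted p = 0.0946). Its groups did not overlap in either diet, with 7.70, 7.59, 7.57 and 7.70 in GC-fed skin after SDS against 7.52, 7.47 and 7.48 before it, yet it was called in 4 of 8 samples after SDS. Hoxc6 had 0.21 in GC-fed skin (SE 0.09, adjusted p = 0.156), with 9.51, 9.91, 9.77 and 9.55 after SDS against 9.52, 9.51 and 9.39 before it, and 0.01 in control-fed skin. The remaining changes were small: Hoxc5 had -0.05 and 0.00, Hoxd8 -0.06 and -0.07, and Hoxb3 0.06 and 0.06 in GC-fed and control-fed skin.

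Markers of the cell types in skin were read beside the Hox genes. Over all genes tested, 6.12% rose and 7.54% fell after SDS in GC-fed skin. In control-fed skin 6.66% rose and 8.46% fell. Of 13 hair follicle markers, 10 rose after SDS in GC-fed skin (median 1.63) and 4 in control-fed skin (median 1.23), among them Krt85 and Krt35, keratins of the hair shaft. Their summed intensity was 318000 to 539000 in GC-fed and 229000 to 546000 in control-fed skin after SDS, against 78900 to 208000 and 84700 to 465000 before it. Of 8 basal keratinocyte markers, 1 fell in GC-fed skin (median -0.18) and 4 in control-fed skin (median -0.36): Dst, a linker of the hemidesmosome, fell in both, and Itgb4, Col17a1 and Krt15 in control-fed skin. Their summed intensity was 269000 to 395000 in GC-fed and 232000 to 295000 in control-fed skin after SDS, against 291000 to 375000 and 272000 to 350000 before it. Of 10 dermal fibroblast markers, 0 passed in either diet (medians 0.00 and -0.08; Lum had the smallest p, -0.28 with an adjusted p of 0.0565 in GC-fed skin). Other lists moved as well. Of 8 adipocyte markers, 1 fell in GC-fed skin (Lipe, median of the list 0.05) and 3 rose in control-fed skin (Adipoq, Plin1 and Lep, median 0.40). Of 5 melanocyte markers, 1 rose in GC-fed skin (median 0.70) and 2 in control-fed skin (median 0.85), and of 7 endothelial markers, 2 fell in GC-fed skin (median -0.27) and 0 passed in control-fed skin (median -0.12). Suprabasal keratinocyte markers, 6 tested, had 0 that passed in GC-fed skin (median -0.10) and 1 that fell in control-fed skin (median -0.38). Among 5 pericyte and smooth muscle markers, 1 fell in GC-fed skin (median -0.31) and 0 passed in control-fed skin (median 0.06). Among 10 skeletal muscle markers, 0 passed in GC-fed skin (median -0.42) and 1 rose in control-fed skin (median 0.21). No macrophage or nerve and Schwann marker passed in either diet. The part of these cell types in the Hox changes was not tested.

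The diet comparison asks how GC-fed skin differed from control-fed skin on the same array. After SDS, 0 of the 27 Hox genes passed in limma's fit, as did 0% of all 17110 genes, and the lowest adjusted p was 0.835. At an unadjusted p under 0.05 stood 7 of the 27 (25.9%, against 4.46% of all genes), all higher in GC-fed skin. The same number, 7 of 27, was higher on all 4 arrays (25.9%, against 3.36%), and 1 was lower on all 4 (3.7%, against 4.62%). Of those higher, Hoxa6, Hoxb5 and Hoxb8 had ratios of only 0.01 on array 1. Hoxa6, Hoxb8 and Hoxc10 were not well above background in most samples after SDS. The median of the Hox genes was 0.12, with 21 of 27 above 0, against 0.00 over all genes. On the single arrays the Hox median was 0.01, 0.18, 0.29 and 0.01. These ratios share the control-fed samples after SDS with the SDS comparison above, so the values of a gene in both are not independent.

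Hoxa10 had the smallest p: its log2 ratio was 0.16, 1.15, 0.96 and 0.35 on the 4 after-SDS arrays (0.66, SE 0.17, unadjusted p = 0.00674 by limma), against 0.01, -0.06 and 0.18 on the before-SDS arrays. Hoxa9 followed with 0.26, 0.89, 0.93 and 0.08 after SDS (0.54, SE 0.16), against -0.05, 0.12 and 0.25 before it. Hoxb9, a gene of the thoracic axis and the mammary gland, had 0.04, 0.83, 0.77 and 0.22 after SDS (0.46, SE 0.14), against -0.06, -0.05 and -0.02 before it. These 3 were higher in GC-fed skin on every after-SDS array, by little on array 1 or array 4 and by more on arrays 2 and 3. A further probe of Hoxb9 gave a fitted ratio of 0.28 (SE 0.12) after SDS and -0.002 before it. Hoxc10 showed 0.05, 0.36, 0.30 and 0.08 (0.20, SE 0.08), from a probe mostly not above background after SDS.

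Other genes turned on array 4. Hoxa7 had 0.93, 1.12, 1.08 and -0.52 after SDS (0.65, SE 0.24), against 0.04, -0.03 and -0.10 before it. Hoxc9, a gene of the thoracic axis, had 0.24, 0.71, 0.69 and -0.51 (0.28, SE 0.19), against -0.16, -0.01 and -0.06 before SDS. Hoxd4 had 0.23, 0.47, 0.58 and -0.05 (0.31, SE 0.11), against -0.20, -0.25 and -0.11 before SDS. In these 3, arrays 1 to 3 lay above 0 and array 4 below it. Without array 4, 4 Hox genes passed, Hoxa7, Hoxa9, Hoxc9 and Hoxd4, among 927 genes of all kinds. With the samples of array 4 exchanged, these 4 and Hoxb7 passed, 5 of 27, among 1837 genes of all kinds.

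Marker lists moved between these arrays too. The median ratio of the 8 basal keratinocyte markers was 0.50, 0.34, 0.59 and -0.22 on after-SDS arrays 1 to 4, and that of the 7 suprabasal keratinocyte markers was 1.07, 0.50, 0.80 and -0.79. Both had the sign pattern of Hoxa7. That of the 8 macrophage markers was -0.66, -0.40, -1.07 and 0.48, the opposite pattern, and that of the 10 dermal fibroblast markers was -0.20, 0.01, -0.06 and 0.43. That of the 8 adipocyte markers was below 0 on all 4 arrays, at -0.34, -0.45, -1.08 and -0.11, as was that of the 10 skeletal muscle markers, at -1.02, -0.22, -1.29 and -0.42. For 13 hair follicle markers the median ratio was -0.63, 0.18, 1.25 and -0.07. For 5 melanocyte markers it was -0.13, 0.13, 1.09 and -0.80. Of the fibroblast markers, 5 had a diet effect above 0 and 5 below it, with a median of -0.02, and none passed. Col1a2 had the smallest p (0.73), followed by Col3a1 (0.40) and Fbln1 (-0.40), each with an adjusted p of 0.835. The part of these cell types in the Hox ratios was not tested.

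**Figure D4:**
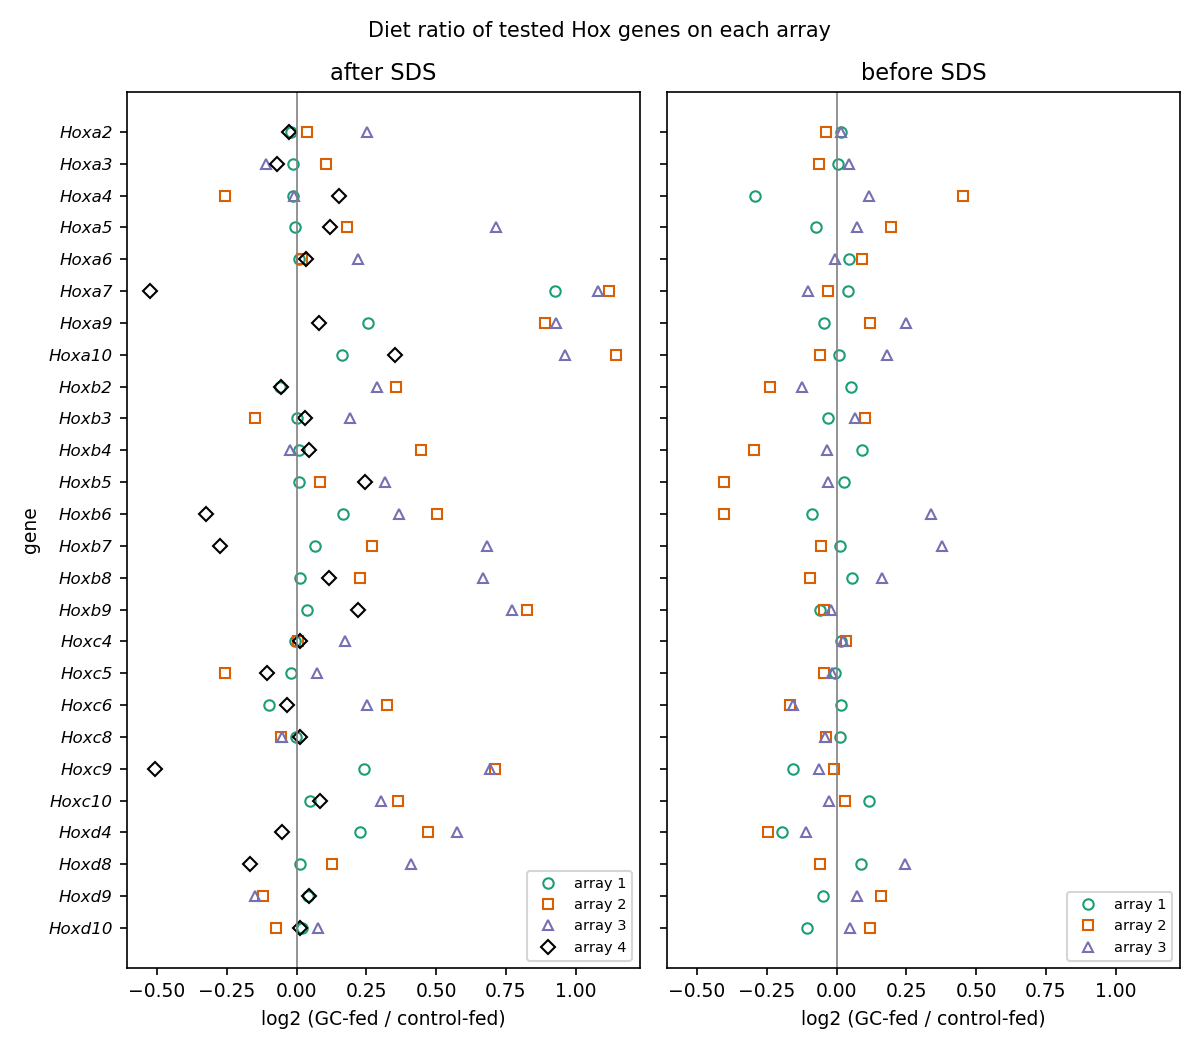
Log2 ratio (GC-fed over control-fed) for 26 of the 27 tested Hox genes on each of the 4 after-SDS arrays (left) and the 3 before-SDS arrays (right); each symbol is 1 array. On after-SDS arrays 1 to 3, Hoxa7 lies between 0.93 and 1.12, and on array 4 at -0.52; before SDS it lies between -0.10 and 0.04.

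Before SDS no difference between the diets passed. In limma's fit 0 of the 27 Hox genes passed (0% of all genes), 0 of 27 had an unadjusted p under 0.05 (0.397% of all genes), and the Hox median was 0.01. The 95% intervals of the 27 genes spanned -0.63 to 0.73, so a ratio of the size of that of Hoxa7 after SDS could be missed. Fitted ratios ran between -0.18 and 0.10. Hoxd4 was the lowest (-0.18, SE 0.13), and it was lower on all 3 arrays, as were 4 of the 27 Hox genes in all (14.8%, against 9.61%). Hoxc4 alone was higher on all 3, by 0.02 to 0.04 (1 of 27, 3.7%, against 9.28%). Hoxb5 had 0.03, -0.40 and -0.03, and Hoxb6 -0.09, -0.40 and 0.34 on arrays 1 to 3, with both signs present in each.

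The diet effect after SDS minus that before it, which is also the difference between the diets in the change with SDS, passed for 0 of the 27 Hox genes (0% of all genes; all adjusted p = 0.9998 for Hox genes), with 1 of 27 at an unadjusted p under 0.05 (3.7%, against 1.21%), Hoxd4 (0.48, SE 0.17). Hoxa10 had 0.62 (SE 0.26), Hoxa7 0.60 (SE 0.37), Hoxb9 0.51 (SE 0.22) and Hoxa9 0.44 (SE 0.25). The median was 0.15, with 21 of 27 above 0. Without after-SDS array 4, Hoxa7 passed, among 56 genes of all kinds.

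Genes that work with Hox proteins, or set their expression, were followed as lists. The calls below stand beside 13.7% of all genes passing with SDS in GC-fed skin and 15.1% in control-fed skin. Of the 9 Pbx, Meis and Pknox cofactors, all passed the filter and 0 changed with SDS in either diet; at an unadjusted p, Pbx3 had 0.21 and Meis1 -0.24 in GC-fed skin (adjusted p = 0.0716 and 0.111), and Pbx2 had 0.18 in control-fed skin (adjusted p = 0.109). Of 21 Polycomb and trithorax genes, which keep Hox genes silent or active, Jarid2 rose in GC-fed skin (0.38, adjusted p = 0.0311) and in control-fed skin (0.35, adjusted p = 0.0387), and Ezh1, a histone methyltransferase, fell in GC-fed skin (-0.49, adjusted p = 0.00964; -0.27 with adjusted p = 0.0734 in control-fed skin). The other list was of positional transcription factors outside the Hox clusters, with 12 of 19 genes tested. Msx2, a gene of the hair follicle, rose in GC-fed skin (1.32, adjusted p = 0.0108) and in control-fed skin (0.87, adjusted p = 0.0453). Twist1, a regulator of mesenchyme, fell in GC-fed skin (-0.59, adjusted p = 0.00532), and Pitx1, a hindlimb gene, fell in control-fed skin (-0.44, adjusted p = 0.0234). The medians of the 3 lists lay between -0.02 and 0.04 in the SDS comparisons. In the diet comparison after SDS, 0 genes of these lists passed.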

How the data were processed

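The authors deposited, for each array, the intensity of every spot in both channels (mean signal, median local background and a processed signal), read with Agilent Feature Extraction 9.1.3.1 per the file headers. A gene table deposited by the authors holds log2 ratios and served as an alternative. From the mean signals, limma 3.58.1 in R 4.3.3 removed background (normexp, offset 50) and normalized each array by loess; 4 to 27 flagged spots per array were left out. Diet effects came from 1 limma fit of the 7 arrays' log2 ratios that included a dye term, and SDS effects from limma's separate-channel fit to the 14 channels after Aquantile normalization (correlation within spots -0.00631). This channel fit left out 47 genes with flagged spots, none of them Hox. Adjusted p-values follow Benjamini and Hochberg, over all genes tested; 0.05 was the threshold. The number of arrays limits the precision.

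The values of 1 tested Hox gene are not reported here singly, though counts and medians include it. The Hox genes and lists were chosen with earlier results of these data known. Hox genes were named by a rule: those that passed, and the 3 with the smallest p in each direction of each comparison. The rule also took the 2 brightest of each cluster detected in all channels. Values in single samples are given for only part of these genes. Of other lists, some genes that passed or had the smallest p are named, without values in single samples. The scripts were tested on simulated data. Replicate numbers were not used in the main fits to pair samples across the arrays before and after SDS. Deviations of same-numbered samples correlated at -0.194 to 0.287, and those of differently numbered samples at -0.294 to 0.357. With so few samples, these values cannot decide whether samples were paired. Alternatives covered background correction, normalization, filters, the dye term, probes, replicate block and leaving out each array. A further alternative exchanged the samples of the after-SDS array that stood apart in its correlations, so its choice drew on these data. The alternatives within 1 dye were added after the data were seen.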

Additional observations from a re-analysis of the deposited data

Results flagged for a closer look

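The ratios and levels of 21 named Hox genes after SDS made 63 groups of 4 values. In 7 groups, the gap of 1 value to the nearest, as a share of the range, exceeded Dixon's 95% critical value. Chance gives about 3.2. The ratio of a gene is the difference of its GC-fed and control-fed levels, so the groups are not independent. Hoxa7 on array 4 and Hoxc4 on array 3 are each counted by ratio and by level. On array 4, Hoxa7 had a diet ratio of -0.52 against 0.93 to 1.12 on the other arrays, and a control-fed level of 11.1, the highest of its group. On array 3, Hoxc4 had a diet ratio of 0.17 and a control-fed level of 7.75, the lowest of its group, and Hoxd8 had a control-fed level of 8.70, likewise the lowest. The control-fed level of Hoxa4 on array 2 was 7.72 and that of Hoxd9 on array 1 was 7.98, each the highest of its group. Hoxb9 is listed because its diet ratio was above 0 on all 4 arrays after SDS and below 0 on all 3 before SDS. The difference was 0.51 (SE 0.22), and in limma's test of the difference its adjusted p was 0.9998. A further probe of Hoxb9 gave a difference of 0.28 (SE 0.19).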

How the results depend on the processing

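For the 21 named Hox genes, no change that passed turned its sign under any alternative; genes of the other lists were not rerun one by one. In control-fed skin the count of Hox genes that fell with SDS was 6, and 1 to 6 when 1 array was left out (151 to 3641 of all genes, against 2580); it was 0 without normalization between arrays (0 of all genes), where the median of all genes was itself -0.26 in either diet. Over all genes it was 4346 with the samples of after-SDS array 4 exchanged, 1162 with median centring (390 higher, 772 lower, against 1137 and 1443) and 1586 with replicate block. In GC-fed skin the count of 3 was 0 to 2 when 1 array was left out, 0 with median centring, with processed signals or without normalization between arrays, and 1 with no filter, with genes detected in all 14 channels, or with replicate block. Over all genes, 2330 became 525 to 2695 with 1 array left out, 1196 with median centring (379 higher, 817 lower, against 1044 and 1286), 1393 with processed signals (734 and 659), 0 without normalization between arrays and 1354 with replicate block; the correlation within spots was kept at its main value in the block. The diet effect after SDS passed for 0 Hox genes, 0 to 4 with 1 array left out and 5 with array 4 exchanged (0, 0 to 927 and 1837 of all genes), and its difference from that before SDS for 0, 0 to 1 and 0 (0, 0 to 56 and 123 of all genes). Before SDS the count stayed at 0 in every alternative. With the authors' deposited log2 ratios, which covered 11 Hox genes, 0 passed. The count of 13 Hox genes detected in all channels was 23 by the scanner's test of signal against background, and 27 in at least 1 or at least 3 channels. The cause of these shifts was not tested; signal near background limits Hoxc10, Hoxa6 and the genes called in red only.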

Other observations

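Probes for transcripts that lie beside or opposite Hox genes were also on the array. Of the pair for Hoxd3os1, which RefSeq places on the strand opposite Hoxd3, 1 was well above background in 13 of 14 channels and the other in 0, while Hoxd3 itself was called in 0 channels. Hoxaas3 was called in 4 channels and Hoxaas2 in 0.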
